A study of Mus musculus with 9 samples.

Results

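RNA levels of 9 genes of prostaglandin, thromboxane and leukotriene synthesis were measured by bulk sequencing in mouse cerebellum. The genes were taken by symbol: Ptgs1, Ptgs2, Ptges, Ptgds, Hpgds, Tbxas1, Alox5, Alox5ap and Ltc4s. They were 9 of 53924 rows with a gene name, and all 9 were among the 16634 genes with enough counts to test. The 9 libraries fell into 3 groups of 3. PLX3AP mice had received 3-AP after PLX3397, which the labels give as a depletion of microglia. 3AP mice had received 3-AP without PLX3397, and control mice had received saline. 3-AP (3-acetylpyridine) is a neurotoxin used to lesion the inferior olive, from which climbing fibres reach the Purkinje cells. PLX3397 blocks the CSF1 receptor, which microglia and many other macrophages need to survive. The labels used here give no dose, interval, age, sex or strain. No group given PLX3397 alone was analysed here, so its effect without 3-AP cannot be told apart from its effect with it. Nothing in the labels says that each library came from a separate animal, so p-values measure the spread between these libraries, which may be technical.

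The pathway starts when phospholipases release arachidonic acid from membranes. Cyclooxygenases turn it into prostaglandin H2, which terminal synthases convert into prostaglandin E2, prostaglandin D2 or thromboxane A2. In the leukotriene branch, arachidonate 5-lipoxygenase works with its membrane partner, the 5-lipoxygenase-activating protein, to make leukotriene A4, and leukotriene C4 synthase joins that product to glutathione. In brain, the prostaglandin branch is known from fever, pain and sleep, and the leukotriene branch mainly from leukocytes and microglia.

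The libraries held 18452256 to 22358447 estimated counts. As a check of the tissue label, markers of Purkinje cells (10 genes, summed level 9190 to 11210 CPM over the 9 libraries) and granule cells (10 genes, 4751 to 5876 CPM) were abundant. CPM are counts scaled to library size, with factors from TMM (trimmed mean of M values). Markers of the choroid plexus, a tissue attached to the cerebellum, differed more between libraries of one group than between groups. The summed level of 10 such genes ran from 41.0 to 2080 CPM in PLX3AP, 644 to 1994 CPM in 3AP and 131 to 4076 CPM in control libraries. Control replicate 3 was the highest library and PLX3AP replicate 2 the lowest.

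Promoters of 8 of the 9 genes were found in RefSeq (GRCm38.p6), each as the 250 bases before and 50 bases after a transcript start. Alox5ap was only named. The 4 shown are those of the 3 genes that differed between PLX3AP and 3AP and had a promoter sequence (Ptgs2, Tbxas1 and Hpgds), with that of Ptgs1, the constitutive counterpart of Ptgs2, beside them. Capitals mark matches, on either strand, to the 7 motifs searched. Ptgs2 lies at chr1:150099781-150100080 on the plus strand, Tbxas1 at chr6:38918736-38919035 on the plus strand, Hpgds at chr6:65144681-65144980 on the minus strand and Ptgs1 at chr2:36230176-36230475 on the plus strand. The Tbxas1 window starts from a RefSeq transcript that begins inside the gene as GENCODE annotates it (chr6:38875404-39084585, GRCm38).
Ptgs2 promoter: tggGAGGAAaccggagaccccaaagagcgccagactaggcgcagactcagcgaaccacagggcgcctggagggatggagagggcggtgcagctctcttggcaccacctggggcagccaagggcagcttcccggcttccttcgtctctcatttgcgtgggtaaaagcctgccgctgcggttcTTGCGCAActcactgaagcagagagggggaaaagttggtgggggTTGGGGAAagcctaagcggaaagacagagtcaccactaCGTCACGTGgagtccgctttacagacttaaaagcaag
Tbxas1 promoter: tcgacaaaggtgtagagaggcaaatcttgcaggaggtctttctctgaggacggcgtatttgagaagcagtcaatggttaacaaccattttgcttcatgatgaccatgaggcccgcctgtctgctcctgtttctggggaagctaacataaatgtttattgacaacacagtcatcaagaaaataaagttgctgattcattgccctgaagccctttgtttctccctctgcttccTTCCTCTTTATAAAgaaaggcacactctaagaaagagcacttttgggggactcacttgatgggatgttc
Hpgds promoter: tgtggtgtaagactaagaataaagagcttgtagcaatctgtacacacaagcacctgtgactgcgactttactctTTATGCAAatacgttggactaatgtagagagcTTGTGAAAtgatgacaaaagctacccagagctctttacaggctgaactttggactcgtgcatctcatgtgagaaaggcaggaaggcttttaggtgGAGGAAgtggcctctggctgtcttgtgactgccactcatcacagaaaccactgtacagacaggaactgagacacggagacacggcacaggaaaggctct
Ptgs1 promoter: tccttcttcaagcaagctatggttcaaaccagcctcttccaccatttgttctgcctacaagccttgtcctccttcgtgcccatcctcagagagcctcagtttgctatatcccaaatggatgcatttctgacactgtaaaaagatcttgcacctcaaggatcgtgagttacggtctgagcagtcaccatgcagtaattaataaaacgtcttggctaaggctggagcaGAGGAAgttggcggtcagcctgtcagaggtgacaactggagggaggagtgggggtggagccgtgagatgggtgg

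In the Ptgs2 window an E-box (CACGTG, in 7.15% of 32851 promoter windows of this length) began at +17 from the start and overlapped the core of the cyclic AMP response element (TGACG, 20.8% of windows), read on the minus strand at +14. The same window held the C/EBP pattern TTNNGNAA at -69, where it reads the same on both strands, and at -25. That pattern stood in 4 of the 8 windows, those of Ptgs2, Ptges, Ptgds and Hpgds, and in 40.7% of all windows. The core bound by PU.1 (GAGGAA) stood in 7 of the 8 windows, all except that of Ptgds, and in 28.3% of all windows. PU.1 is a transcription factor of myeloid cells. In Hpgds it lay at -49, in Tbxas1 at -19 on the minus strand and in Ptgs1 at -24. In Tbxas1 it was followed by a TATA box (TATAAA, 13.6% of windows) that matched on the minus strand at -13 and, overlapping it, on the plus strand at -11. The pattern of the interferon-stimulated response element (GAAA, NN and GAAA in a row) was in none of the 8 windows and in 3.44% of all windows. The NF-kB pattern was in the Ptgds window alone, at -22, against 8.46% of all windows. These matches describe letters in a window and say nothing of binding.

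Per transcript length, 1 gene stood far above the others in every group. Ptgds, the lipocalin-type prostaglandin D synthase that meninges, choroid plexus and oligodendrocytes are known to make, averaged 3623 TPM in PLX3AP, 4000 TPM in 3AP and 3490 TPM in control libraries. TPM, as deposited by the authors, are scaled to transcript length and library total. The gene next in order was Alox5ap in each group, with means of 8.25, 21.3 and 11.3 TPM in PLX3AP, 3AP and control libraries. Ltc4s followed with 7.12 TPM in PLX3AP, 8.71 TPM in 3AP and 8.64 TPM in control libraries. Ptgs1 came next with 3.98, 4.65 and 3.44 TPM in the same order of groups, and Ptges with 3.62, 3.70 and 3.01 TPM. The 4 others averaged under 3 TPM in every group.

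Some neighbours in this order were not separated by their libraries. Ptgs1 and Ptges overlapped in all 3 groups. Alox5ap and Ltc4s overlapped in PLX3AP and in control libraries, but in 3AP libraries the lowest Alox5ap value, 18.4 TPM, was above the highest Ltc4s value, 9.93 TPM. In control libraries Ptgs2 was last, at 0.267 TPM, and its highest library (0.290 TPM) was below the lowest of Hpgds (0.580 TPM). In 3AP libraries Ptgs2, at 1.91 TPM, stood above Hpgds (1.81 TPM) and Alox5 (0.980 TPM), although Ptgs2 and Hpgds overlapped. In PLX3AP libraries Tbxas1, Hpgds, Ptgs2 and Alox5 lay between 0.343 and 0.493 TPM on average, and each overlapped its neighbour.

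**Figure D1:**
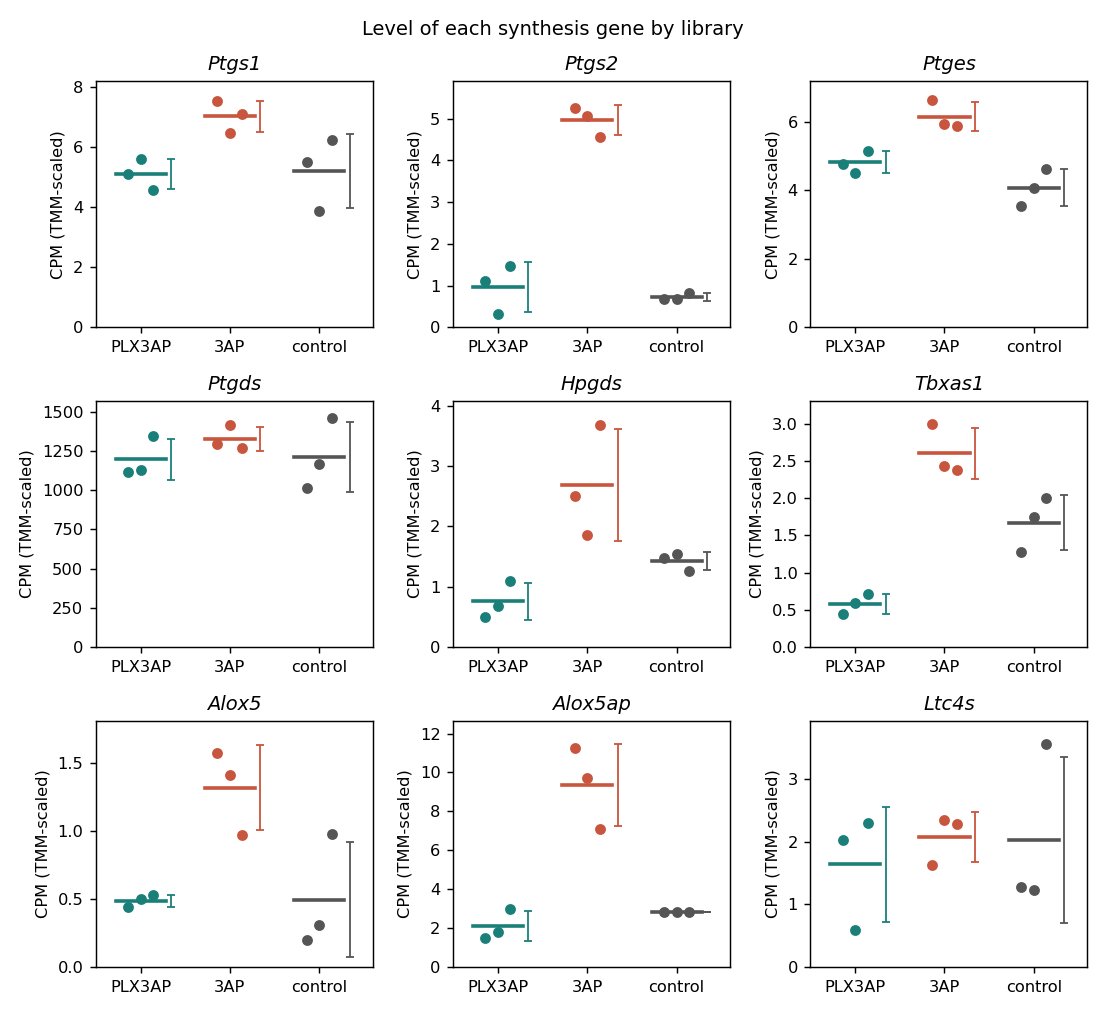
Level of each of the 9 genes in CPM (counts scaled to library size by TMM; vertical axes start at 0 and differ between genes) in the 3 PLX3AP, 3 3AP and 3 control libraries. Points are libraries, thick lines group means and bars the SD. Ptgs1, Ptgs2, Ptges, Hpgds, Tbxas1 and Alox5ap are higher in all 3AP libraries than in any other. For Alox5, control replicate 3 is level with the lowest 3AP library, and the groups overlap for Ptgds and Ltc4s.

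The comparison of 3AP with control libraries asks what the toxin changed. Ptgs2, the inducible cyclooxygenase COX-2, and Alox5ap, which encodes the 5-lipoxygenase-activating protein, rose, 6.76-fold and 3.29-fold. These were 2 of the 9 genes, where 3.75% of all tested genes rose at an adjusted p under 0.05 and 1.18% fell. P-values come from the two-sided quasi-likelihood test of edgeR, with Benjamini-Hochberg adjustment across the 16634 genes. In 6 of the 9 genes every 3AP library was above every control library in CPM, against 13.6% of all tested genes. Of these, Ptges (3.12 to 4.21 in 3AP, 2.46 to 3.68 in control) and Tbxas1 (2.17 to 2.69, 1.14 to 2.27) overlapped in TPM. The median log2 fold change of the 9 was 0.63, against 0.0012 over all tested genes. The 9 genes, like the marker and pathway lists below, were chosen with earlier results of these data known. These contrasts with all genes are therefore descriptions only.

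Of the cyclooxygenases, Ptgs2 had 5.25, 5.06 and 4.56 CPM in 3AP libraries, against 0.688, 0.668 and 0.829 CPM in control libraries. The control values rest on 14, 13 and 17 counts. The groups lay far apart, and the libraries within each were close to one another. The log2 fold change was 2.76 ± 0.40 (SE, 3 libraries a group; 95% interval 1.90 to 3.61; edgeR adjusted p = 0.00113). Leaving out any 1 of the 6 libraries kept the adjusted p (edgeR) between 0.00291 and 0.0112. Ptgs1, the constitutive cyclooxygenase COX-1, had 7.51, 6.48 and 7.08 CPM in 3AP libraries and 5.50, 3.85 and 6.24 CPM in control libraries. Its groups did not overlap, but its log2 fold change of 0.43 ± 0.19 did not pass (edgeR adjusted p = 0.267). Of the TPM of both cyclooxygenases together, Ptgs2 made up 29.3 ± 2.98% in 3AP and 7.25 ± 0.544% in control libraries (SD, n = 3 each). The lowest 3AP library, at 27.5%, was above the highest control library, at 7.84%.

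Of the 4 terminal prostanoid synthases, none had an adjusted p under 0.05 in edgeR, DESeq2 or limma-voom, and 3 had an unadjusted p under it in edgeR, as did 17.0% of all tested genes. Ptges, the inducible prostaglandin E synthase that is paired with COX-2, had 6.63, 5.94 and 5.87 CPM in 3AP libraries and 3.54, 4.06 and 4.63 CPM in control libraries. The groups did not overlap in CPM but did in TPM, and the log2 fold change was 0.59 ± 0.17 (edgeR adjusted p = 0.0720). Hpgds, the haematopoietic prostaglandin D synthase of microglia, macrophages and mast cells, had 2.50, 1.85 and 3.69 CPM in 3AP libraries and 1.47, 1.54 and 1.27 CPM in control libraries. Again the groups did not overlap, and the log2 fold change was 0.91 ± 0.34 (edgeR adjusted p = 0.177). Tbxas1, the thromboxane synthase of platelets and macrophages, had 2.99, 2.44 and 2.38 CPM in 3AP libraries against 1.28, 1.75 and 2.00 CPM in control libraries, with a log2 fold change of 0.63 ± 0.28 (edgeR adjusted p = 0.266). Its groups did not overlap in CPM either, but in TPM they did. Ptgds averaged 1327 ± 77.8 CPM in 3AP and 1212 ± 225 CPM in control libraries (SD, n = 3 each), with overlapping groups and a log2 fold change of 0.13 (95% interval -0.14 to 0.40; edgeR adjusted p = 0.665). DESeq2 and limma-voom called the same number of the 9 genes as edgeR, 2.

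In the leukotriene branch, Alox5ap had 11.2, 9.69 and 7.08 CPM in 3AP libraries, against 2.85, 2.82 and 2.83 CPM in control libraries. The control libraries were nearly equal, and the lowest 3AP library stood well above them. The log2 fold change was 1.72 ± 0.25 (95% interval 1.17 to 2.26; edgeR adjusted p = 0.00126), with adjusted p-values (edgeR) of 0.000886 to 0.0101 when 1 library was left out. Alox5, the 5-lipoxygenase itself, had 1.57, 1.41 and 0.970 CPM in 3AP libraries and 0.196, 0.308 and 0.975 CPM in control libraries. Control replicate 3, with 20 counts, was level with the lowest 3AP library, while the other control libraries had 4 and 6 counts. With all libraries the log2 fold change was 1.40 ± 0.50 (edgeR adjusted p = 0.160), and without control replicate 3 it was 2.36 (edgeR adjusted p = 0.0216). Ltc4s had 1.62, 2.34 and 2.28 CPM in 3AP libraries and 1.28, 1.23 and 3.56 CPM in control libraries. The groups overlapped, and the log2 fold change was 0.037 ± 0.51 (95% interval -1.08 to 1.15; edgeR adjusted p = 0.983).

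**Figure D2:**
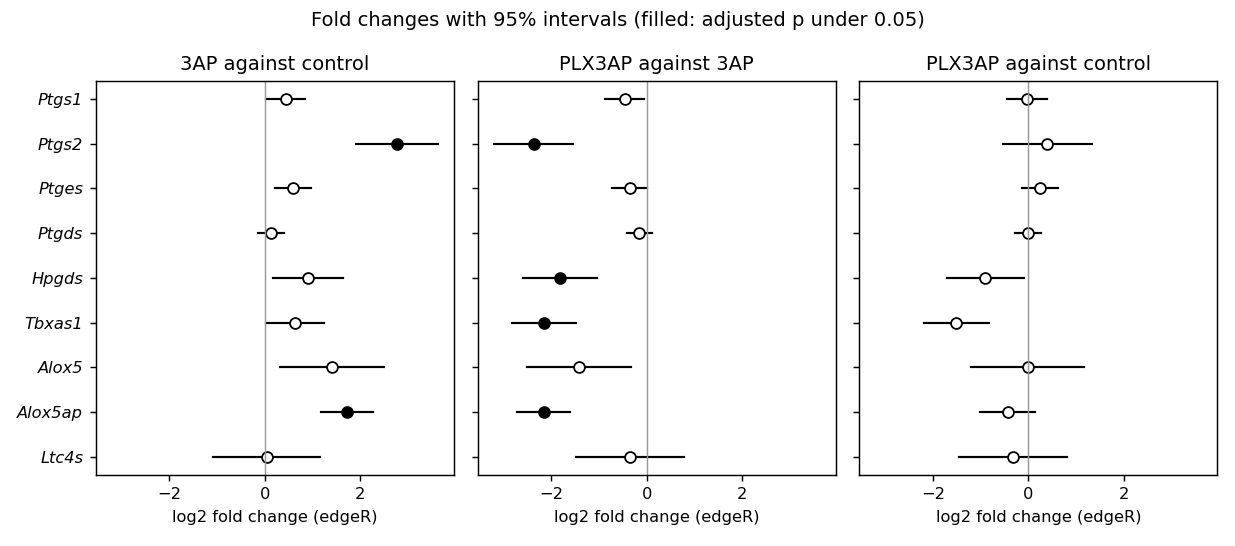
Log2 fold changes (horizontal axes, edgeR) of the 9 genes in the 3 comparisons, 3 libraries a group. Points are estimates, lines 95% intervals, and filled points have an adjusted p under 0.05: Ptgs2 and Alox5ap in 3AP against control, and Alox5ap, Tbxas1, Ptgs2 and Hpgds, all lower, in PLX3AP against 3AP.

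The size of the Alox5ap difference depended on the unit. In the authors' TPM it had 19.1, 26.4 and 18.4 in 3AP libraries and 12.96, 10.5 and 10.6 in control libraries. The groups were still apart, but the ratio of mean TPM was 1.88, against 3.30 for mean CPM. In limma-trend on log2(TPM + 1) the log2 fold change was 0.84 and no longer passed (adjusted p = 0.160). The TPM obtained per CPM was 1.70, 2.72 and 2.59 in 3AP libraries and 4.55, 3.71 and 3.74 in control libraries. Relative to the median gene of each library this ratio was 0.86 lower in 3AP on the log2 scale, a difference that 0.567% of 16397 genes matched in size. The groups did not overlap, as for 10.5% of genes. Alox5ap (chr5:149264767-149288153, plus strand, GRCm38) has 4 annotated transcripts of 1251, 504, 452 and 356 bases, and TPM rest on the length the authors' program assigned. In PLX3AP libraries the ratio was 3.10, 4.17 and 4.27, which was 0.74 higher than in 3AP on the same scale, a size that 0.829% of genes matched. What set it was not tested. Alox5 depended on the unit as well: 3AP over control was 1.40 by mean TPM and 2.67 by mean CPM, and PLX3AP over control 0.490 and 0.988. Its TPM per CPM, relative to the median gene, was 0.72 lower in 3AP than in control on the log2 scale, with overlapping groups, a size that 0.872% of genes matched. Hpgds had 3.27 TPM in 3AP replicate 3, against 1.23 and 0.930 TPM in 3AP replicates 1 and 2. Its TPM per CPM was 0.887 in 3AP replicate 3, against 0.491 and 0.503 in those 2. Ptgs2 gave nearly the same in both units, with ratios of 7.18 for mean TPM and 6.81 for mean CPM.

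**Figure D3:**
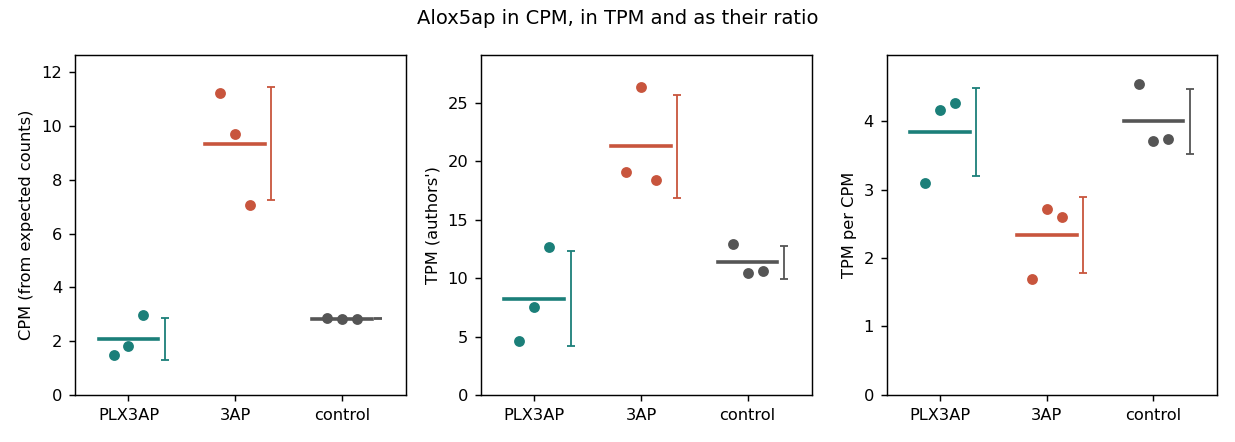
Alox5ap in CPM computed from the estimated counts (left), in the authors' TPM (middle) and as TPM per CPM (right), in the 3 PLX3AP, 3 3AP and 3 control libraries; vertical axes start at 0. Points are libraries, thick lines means and bars the SD. The 3AP libraries are highest in CPM and in TPM and lowest in TPM per CPM.

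The comparison of PLX3AP with 3AP libraries asks what differed after 3-AP when PLX3397 had been given before it. It shares the 3AP libraries with the comparison above, so their values are given side by side and not as separate evidence. Alox5ap, Ptgs2, Tbxas1 and Hpgds fell, by 4.45-fold, 5.15-fold, 4.42-fold and 3.50-fold. These were 4 of the 9 genes, where 3.16% of all tested genes fell and 0.577% rose. In 7 of the 9 every PLX3AP library was below every 3AP library in CPM, against 9.22% of all tested genes. Of these, Ptgs1 (3.44 to 4.74 in PLX3AP, 4.09 to 5.24 in 3AP) and Ptges (2.57 to 4.38, 3.12 to 4.21) overlapped in TPM. The median log2 fold change of the 9 was -1.42, against -0.0083 over all tested genes. Here too the choice of genes with earlier results known leaves these contrasts as descriptions.

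Ptgs2 had 1.10, 0.316 and 1.48 CPM in PLX3AP libraries, from 20, 7 and 31 counts, against 5.25, 5.06 and 4.56 CPM in 3AP libraries. The PLX3AP libraries differed among themselves, and all were far below the 3AP libraries. The log2 fold change was -2.37 ± 0.38 (95% interval -3.20 to -1.53; edgeR adjusted p = 0.00272). Ptgs1 had 5.11, 5.60 and 4.58 CPM in PLX3AP libraries against 7.51, 6.48 and 7.08 CPM in 3AP libraries, which did not overlap, with a log2 fold change of -0.46 ± 0.19 (edgeR adjusted p = 0.328). The Ptgs2 share of cyclooxygenase TPM was 7.78, 3.09 and 14.9% in PLX3AP libraries, against 27.5, 32.7 and 27.6% in 3AP libraries. It was below the 3AP range in every PLX3AP library.

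Tbxas1 had 0.439, 0.587 and 0.716 CPM in PLX3AP libraries, against 2.99, 2.44 and 2.38 CPM in 3AP libraries. These were 8, 13 and 15 counts in PLX3AP and 61, 50 and 49 counts in 3AP, with no overlap. The log2 fold change was -2.14 ± 0.31 (95% interval -2.81 to -1.47; edgeR adjusted p = 0.00123). Hpgds had 0.494, 0.678 and 1.10 CPM in PLX3AP libraries against 2.50, 1.85 and 3.69 CPM in 3AP libraries. The highest PLX3AP library was below the lowest 3AP library, and the log2 fold change was -1.81 ± 0.36 (edgeR adjusted p = 0.0106). Without PLX3AP replicate 2 the Hpgds fold change, -1.73, did not pass (edgeR adjusted p = 0.0593). Nor did it pass in 3 of 10 alternatives other than leaving out a library. Among these 3 was limma-trend on log2(TPM + 1), at -0.94 (adjusted p = 0.0828), and another had a larger adjusted p. Ptges had 4.78, 4.52 and 5.15 CPM in PLX3AP libraries against 6.63, 5.94 and 5.87 CPM in 3AP libraries, with a log2 fold change of -0.35 ± 0.17 (edgeR adjusted p = 0.441). Ptgds had 1113, 1127 and 1347 CPM in PLX3AP libraries and 1296, 1416 and 1270 CPM in 3AP libraries. Its groups overlapped, and the interval of its log2 fold change, -0.42 to 0.12, did not include the -1.81 of Hpgds, the other enzyme that makes prostaglandin D2. Hpgds was a small part of the TPM of those 2 enzymes: Ptgds made up 99.99% of it in PLX3AP, 99.95% in 3AP and 99.98% in control libraries.

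Alox5ap had 1.48, 1.81 and 2.96 CPM in PLX3AP libraries, against 11.2, 9.69 and 7.08 CPM in 3AP libraries. The groups did not overlap, and the log2 fold change, -2.16 ± 0.26 (95% interval -2.71 to -1.60; edgeR adjusted p = 0.000317), was called without each of the 6 libraries in turn. By mean TPM the fall was 2.58-fold, against 4.48-fold by mean CPM, and on log2(TPM + 1) without a filter it did not pass (limma adjusted p = 0.0750). Alox5 had 0.439, 0.497 and 0.525 CPM in PLX3AP libraries against 1.57, 1.41 and 0.970 CPM in 3AP libraries. All PLX3AP libraries were lower, but at 8 to 11 counts each the log2 fold change of -1.42 ± 0.50 did not pass (edgeR adjusted p = 0.213). Ltc4s had 2.03, 0.587 and 2.29 CPM in PLX3AP libraries and 1.62, 2.34 and 2.28 CPM in 3AP libraries, with overlap (log2 fold change -0.35 ± 0.51; edgeR adjusted p = 0.855).

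Several marker lists moved with these genes. The summed level of 15 homeostatic microglia markers was 105 to 161 CPM in PLX3AP, 328 to 391 CPM in 3AP and 176 to 196 CPM in control libraries. Of these, 7 rose in 3AP against control (3.75% of all tested genes rose) and 10 fell in PLX3AP against 3AP (3.16% of all tested genes fell). The same shares of all genes stand behind the counts of the other marker lists. The defining markers did not all follow one course: Tmem119 averaged 5.19, 14.9 and 8.38 CPM in PLX3AP, 3AP and control libraries, P2ry13 1.70, 5.12 and 3.00 CPM, and P2ry12 3.81, 6.94 and 9.61 CPM. Markers of border-associated macrophages (10 genes, 9 tested) summed to 3.73 to 7.02 CPM in PLX3AP, 40.0 to 43.1 CPM in 3AP and 24.6 to 27.4 CPM in control libraries. All 9 fell in PLX3AP against 3AP and 3 rose in 3AP against control, but 2 of them (Siglec1 and Folr2) had enough counts to be tested only through the 3AP libraries. Mrc1 averaged 0.257 CPM in PLX3AP, 5.09 CPM in 3AP and 4.71 CPM in control libraries, and F13a1 0.252, 7.36 and 2.57 CPM in the same groups. Neutrophil and monocyte markers (13 genes, 9 tested) summed to 2.67 to 4.49 CPM in PLX3AP, 16.2 to 36.0 CPM in 3AP and 2.16 to 6.14 CPM in control libraries. Of the 9 tested, 7 reached the low-count floor of 0.491 CPM in fewer than 3 libraries outside 3AP, so no count of their calls is given. S100a9 averaged 0.356 CPM in PLX3AP, 6.71 CPM in 3AP and 0.695 CPM in control libraries. Ly6g, a defining neutrophil gene, had 0, 4 and 1 counts in PLX3AP, 3AP and control.

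Other sources of these enzymes were also listed. Mast cells make prostaglandin D2 and leukotriene C4, and their defining markers Cpa3, Cma1 and Mcpt4 had 0, 2 and 0 counts in PLX3AP, 2, 4 and 6 in 3AP and 3, 6 and 3 in control, each over 3 libraries. Of the 10 genes on that list only Hdc had enough counts to test. Hdc averaged 6.93, 7.45 and 6.54 CPM in PLX3AP, 3AP and control libraries and was not called in any comparison. Platelets make thromboxane, and their 8 markers summed to 2.00 to 2.71 CPM in PLX3AP, 1.79 to 2.55 CPM in 3AP and 1.34 to 2.78 CPM in control libraries, ranges that overlapped. T, NK and B cell markers summed to at most 1.13 CPM in any library. Of 10 endothelial markers, 4 rose and 1 fell in 3AP against control, and 3 fell in PLX3AP against 3AP. They went both ways: Cldn5 averaged 31.1, 63.8 and 25.0 CPM in PLX3AP, 3AP and control libraries, and Slc2a1, the glucose transporter, 167, 154 and 207 CPM. Among 11 meningeal fibroblast markers, 1 rose in 3AP against control and 3 fell in PLX3AP against 3AP. Of 10 astrocyte and Bergmann glia markers, 1 rose and 2 fell in 3AP against control, and 1 rose and 1 fell in PLX3AP against 3AP. Gfap, the astrocyte filament gene, averaged 281 CPM in PLX3AP, 778 CPM in 3AP and 220 CPM in control libraries, and Hopx 151, 101 and 170 CPM in the same groups. Of 10 markers of mature oligodendrocytes, a source of Ptgds, 2 fell in 3AP against control and 1 rose in PLX3AP against 3AP. Opalin, the one called in both, averaged 16.8, 8.62 and 16.8 CPM in PLX3AP, 3AP and control libraries. The part of any of these cells in the changes above was not tested. In bulk tissue, fewer cells of a type and less RNA per cell cannot be told apart.

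The comparison of PLX3AP with control libraries asks how far levels differed from saline. None of the 9 genes passed in edgeR, where 0.12% of all tested genes did. At an unadjusted p under 0.05 there were 2, Tbxas1 and Hpgds, where 9.35% of all tested genes had such a p. Both were lower without overlap, as were 6.42% of all tested genes. limma-voom called none, and DESeq2 called Tbxas1. Tbxas1 had 0.439, 0.587 and 0.716 CPM in PLX3AP libraries against 1.28, 1.75 and 2.00 CPM in control libraries, a log2 fold change of -1.51 ± 0.32 (95% interval -2.19 to -0.82; edgeR adjusted p = 0.126). In DESeq2 it was -1.52 (adjusted p = 0.0416). Hpgds had 0.494, 0.678 and 1.10 CPM in PLX3AP libraries against 1.47, 1.54 and 1.27 CPM in control libraries, a log2 fold change of -0.90 ± 0.37 (edgeR adjusted p = 0.484).

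Alox5ap had 1.48, 1.81 and 2.96 CPM in PLX3AP libraries and 2.85, 2.82 and 2.83 CPM in control libraries. PLX3AP replicate 3 was above the control libraries and the other PLX3AP libraries below them (log2 fold change -0.44, 95% interval -1.02 to 0.14; edgeR adjusted p = 0.621). Ptgs2 had 1.10, 0.316 and 1.48 CPM in PLX3AP libraries against 0.688, 0.668 and 0.829 CPM in control libraries, with an interval of -0.54 to 1.32 on the log2 scale. That interval does not include the 2.76 of 3AP against control. For Ptgs1, Ptges and Ptgds the log2 fold changes were -0.03, 0.24 and -0.02. Their intervals, in that order, ran from -0.45 to 0.39, -0.13 to 0.61 and -0.29 to 0.25. For Alox5 and Ltc4s the intervals were wide, -1.20 to 1.16 and -1.45 to 0.82. Of the 15 microglia markers none passed in edgeR, with 10 at an unadjusted p under 0.05, none in limma-voom and 4 lower in DESeq2. Of the border-associated macrophage markers 5 were lower in edgeR.

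Ltc4s followed none of these courses. Its highest library was control replicate 3, at 3.56 CPM, and its lowest PLX3AP replicate 2, at 0.587 CPM. The same libraries held the extremes of Ttr, the main secreted product of choroid plexus epithelium. Ttr had 1917, 11.5 and 1751 CPM in PLX3AP, 909, 1837 and 577 CPM in 3AP and 94.3, 309 and 3813 CPM in control libraries. Over the 9 libraries Ttr was the gene ranked 2 in likeness to Ltc4s, with a Pearson r of log2 CPM of 0.939. The 9 points share their library preparation and differ in group, so r describes these libraries only. With log2 CPM of Ttr added to the model, a choice made after the data were seen, the SE of the Ltc4s fold change in 3AP against control was 0.29 in place of 0.51, and the fold change itself -0.077 in place of 0.037. Ttr was already like Ltc4s in these same libraries, so the smaller SE follows from that choice and is not separate evidence. The calls of Ptgs2, Alox5ap, Tbxas1 and Hpgds were the same with the Ttr term. Ltc4s (chr11:50236461-50238616, minus strand, GRCm38) is overlapped by the antisense gene Gm26542, which had 0 to 4.39 counts per library, and Alox5ap by Gm19719, with 2 to 9. Tbxas1 shares bases with Hipk2, Gm42962 and 1700025N23Rik on the opposite strand. Whether counting used strand is not given in the sources used here.

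**Figure D4:**
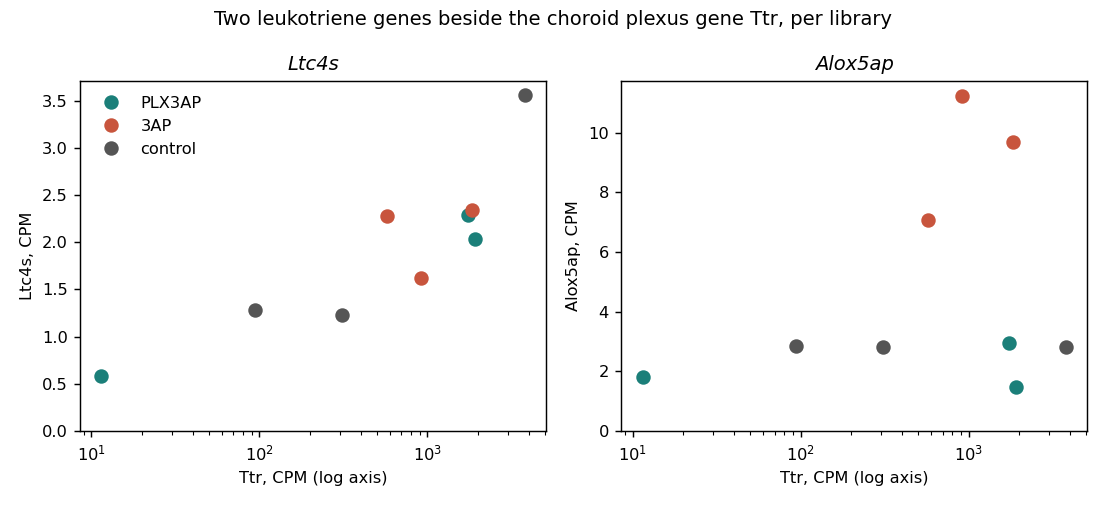
Ltc4s (left) and Alox5ap (right) in CPM against Ttr in CPM (horizontal log axis) in the 9 libraries, coloured by group. Ltc4s is lowest in the library with the least Ttr (11.5 CPM) and highest in that with the most (3813 CPM), while Alox5ap is high in the 3 3AP libraries at 577 to 1837 CPM of Ttr.

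By the same measure, the genes most like each of the other members over the 9 libraries were these. For Ptgs2 they were H2-Q7 (0.984), Gm26648 (0.979) and Gbp4 (0.970). For Alox5ap they were Ppp1r18 (0.994), Naip2 (0.993) and Apbb1ip (0.990), and for Tbxas1 Stab1 (0.981), F13a1 (0.978) and Selplg (0.976). Stab1 and F13a1 are macrophage genes. Hpgds was most like Ly86 (0.951), Naip5 (0.949) and 4930470H14Rik (0.948), and Alox5 most like Cpt1c (0.981), Slc43a3 (0.971) and Itih2 (0.971). Ptges was most like Zfp36l1 (0.972), Aass (0.971) and Ifi27l2a (0.970), Ptgs1 most like Cep44 (0.949), Cdk1 (0.948) and Tlr2 (0.945), and Ptgds most like Bmp7 (0.945), Tcn2 (0.943) and Mrgprf (0.937). Values are Pearson r of log2 CPM over 9 libraries that share their preparation, chosen as the highest of 16634 genes.

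Around the 9 genes, 73 other symbols of the pathway were listed, from release of arachidonate to the receptors. Of these 69 had a row and 52 were tested. In 3AP against control 4 rose and 1 fell, where 3.75% of all tested genes rose and 1.18% fell, and the median log2 fold change over the 52 was 0.08. In PLX3AP against 3AP 1 rose and 6 fell, where 0.577% of all tested genes rose and 3.16% fell, and the median was 0.01. In PLX3AP against control none passed in edgeR, DESeq2 or limma-voom, and 6 had an unadjusted p under 0.05 in edgeR, against 9.35% of all tested genes. Of the 52, 3 (Cyp4f18, Cysltr1 and Dpep1) reached the low-count floor in fewer than 3 libraries outside 3AP. Cyp4f18 was among the 4 that rose, and Cyp4f18 and Cysltr1 were among the 6 that fell. Both were tested only because they were high in 3AP, so these counts are partly set by the filter.

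Of 17 tested genes that release arachidonate or break down its precursors, edgeR called Mgll alone in 3AP against control, as lower. DESeq2 and limma-voom each called 1 gene lower and 1 higher there. Mgll is the monoacylglycerol lipase that yields arachidonate from the endocannabinoid 2-arachidonoylglycerol in brain. It had 104, 115 and 111 CPM in PLX3AP, 87.1, 90.9 and 80.1 CPM in 3AP and 112, 115 and 111 CPM in control libraries. Every 3AP library was below every other library. The log2 fold change was -0.38 ± 0.07 in 3AP against control (edgeR adjusted p = 0.00746) and 0.35 ± 0.07 in PLX3AP against 3AP (edgeR adjusted p = 0.0137). Pla2g4a, the cytosolic phospholipase A2 that acts ahead of the cyclooxygenases, fell in PLX3AP, with 4.89, 3.21 and 2.77 CPM against 6.68, 7.79 and 6.30 CPM in 3AP libraries (log2 fold change -0.94 ± 0.22; edgeR adjusted p = 0.0322). It had 4.27, 3.39 and 4.29 CPM in control libraries, also below every 3AP library. Pla2g3, a secreted phospholipase A2, fell likewise, with 3.13, 3.03 and 2.77 CPM in PLX3AP against 6.58, 4.77 and 5.58 CPM in 3AP libraries. The log2 fold change was -0.92 ± 0.20 (edgeR adjusted p = 0.0221). In control libraries Pla2g3 had 4.13, 2.82 and 3.31 CPM, below every 3AP library as well.

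Of 15 other synthases and oxygenases, 2 rose in 3AP against control and both fell in PLX3AP against 3AP. Mgst1, a microsomal glutathione transferase of the same protein family as Ptges, Ltc4s and Alox5ap, had 14.6, 14.1 and 17.4 CPM in PLX3AP, 25.4, 23.6 and 21.7 CPM in 3AP and 13.2, 14.8 and 15.6 CPM in control libraries. Its 3AP libraries stood above all others. The log2 fold change was 0.70 ± 0.12 in 3AP against control (edgeR adjusted p = 0.00328) and -0.62 ± 0.12 in PLX3AP against 3AP (edgeR adjusted p = 0.00790). Aloxe3, an epidermis-type lipoxygenase, had 10.8, 9.89 and 10.7 CPM in PLX3AP, 14.9, 16.4 and 13.7 CPM in 3AP and 8.74, 7.76 and 8.58 CPM in control libraries, with log2 fold changes of 0.84 ± 0.12 (edgeR adjusted p = 0.00112) and -0.52 ± 0.12 (edgeR adjusted p = 0.0264) in the same comparisons.

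Of 13 genes of transport and breakdown, Cyp4f14 and Cyp4f18 rose in 3AP against control. Both belong to the cytochrome P450 family whose members inactivate leukotriene B4, and Cyp4f18 is known from mouse neutrophils. Cyp4f18 had 0, 2 and 4 counts in PLX3AP, 29, 17 and 11 in 3AP and 1, 3 and 2 in control libraries. The 3AP libraries were all higher, and no library of the other groups reached the low-count floor, so the gene was tested only because it was high in 3AP. It had log2 fold changes of 3.14 ± 0.71 in 3AP against control (edgeR adjusted p = 0.0219) and -3.18 ± 0.71 in PLX3AP against 3AP (edgeR adjusted p = 0.0230). Cyp4f14 had 19.9, 20.4 and 17.2 CPM in 3AP libraries against 12.7, 14.1 and 14.1 CPM in control libraries (log2 fold change 0.49 ± 0.12; edgeR adjusted p = 0.0300).

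Of 15 receptor genes with a row, 7 had enough counts to test, those of prostaglandin E2 (Ptger1, Ptger3 and Ptger4), prostaglandin D2 (Ptgdr), prostaglandin F2alpha (Ptgfr), thromboxane (Tbxa2r) and the cysteinyl leukotrienes (Cysltr1). Cysltr1, the receptor for the products of the leukotriene C4 branch, fell in PLX3AP against 3AP, with 5, 2 and 1 counts in PLX3AP against 16, 13 and 31 counts in 3AP libraries (log2 fold change -2.83 ± 0.63; edgeR adjusted p = 0.0220). It had 4, 7 and 8 counts in control libraries, and like Cyp4f18 it was tested only because it was high in 3AP. Ptger4 averaged 4.67 CPM in PLX3AP, 5.20 CPM in 3AP and 3.51 CPM in control libraries, with an edgeR adjusted p of 0.254 in 3AP against control and 0.861 in PLX3AP against 3AP.

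These pathway calls rested on single libraries more than those of the 9 genes did. In 3AP against control, Mgll, Mgst1 and Aloxe3 passed without each library in turn. Cyp4f14 and Cyp4f18 passed only without 3AP replicate 3, and otherwise had edgeR adjusted p-values of 0.0591 to 0.144 and 0.0623 to 0.122. In PLX3AP against 3AP none of the 7 passed without 3AP replicate 1 (edgeR adjusted p of 0.0508 to 0.145). Mgst1 alone passed without PLX3AP replicate 2, and the 6 others had 0.0842 to 0.150 (edgeR). Each of those 6 also failed without 2 further libraries. On the authors' TPM, Mgll and Aloxe3 did not pass in either comparison under any of the 3 limma-trend settings, with adjusted p-values of 0.107 to 0.242 and 0.474 to 0.768. Of 10 alternatives other than leaving out a library, Pla2g4a lost its call in 6, Aloxe3 in 5, Cysltr1 in 4, Mgll and Cyp4f18 in 3 each, Pla2g3 in 2 and Mgst1 in 0 in PLX3AP against 3AP.

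**Figure D5:**
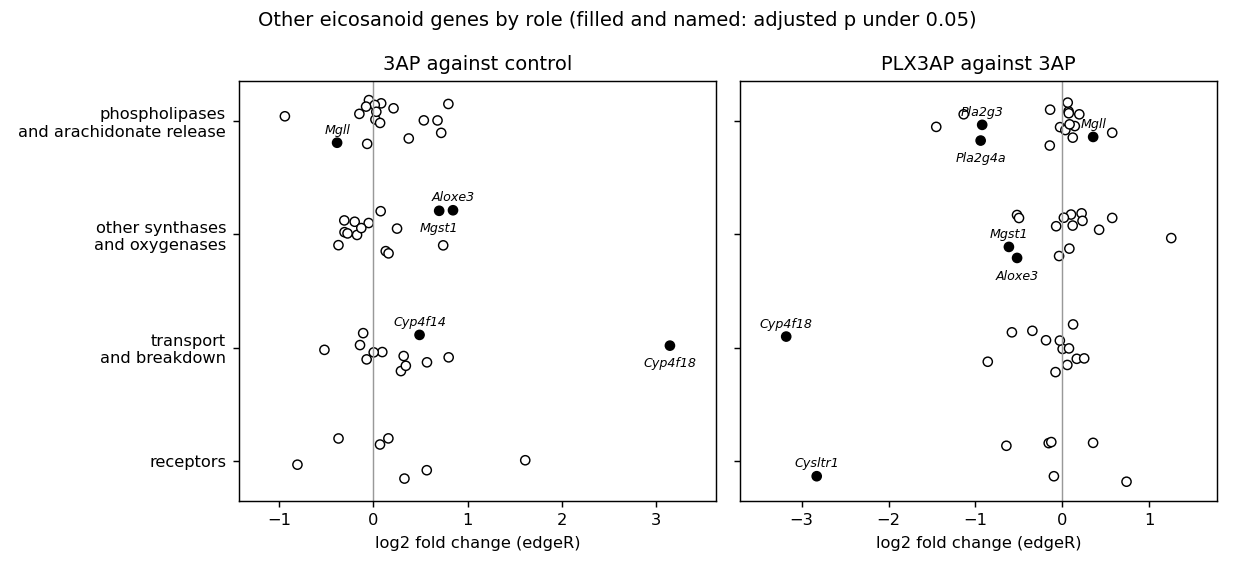
Log2 fold changes (horizontal axes, edgeR) of the 52 other tested pathway genes by role, in 3AP against control (left) and PLX3AP against 3AP (right); the height within a role is arbitrary. Filled, named points have an adjusted p under 0.05: Mgll, Mgst1, Aloxe3, Cyp4f14 and Cyp4f18 on the left, and Mgll, Pla2g3, Pla2g4a, Mgst1, Aloxe3, Cyp4f18 and Cysltr1 on the right, where Mgll alone is higher.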

How the data were processed

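Total RNA of 9 cerebellum libraries was sequenced. The submitters' processing notes name fastp, HISAT2, StringTie, RSEM and the mm10 build. Their versions, the annotation and the strandedness were not given in the sources used. For each library the authors deposited expected counts per gene, not normalised, and TPM, which they scaled to transcript length and library total. Of 55808 rows, 1884 carry no gene name (0.526 to 0.660% of counts) and were left out of library sizes and tests. Alox5 had at least 10 counts per median-sized library (0.491 CPM) in 2 PLX3AP, 3 3AP and 1 control libraries; Ltc4s and Hpgds had non-whole counts in 2 libraries each.

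Rounded counts were tested in R 4.3.3 with edgeR 4.0.16: filterByExpr (16634 genes), TMM, and a robust quasi-likelihood fit with 1 term per group over all 9 libraries (biological coefficient of variation 0.126). Fold changes, CPM and p-values were computed here, adjusted by Benjamini-Hochberg, with calls under 0.05. Intervals are 95%. Alternatives were DESeq2 1.42.0, limma 3.58.1 (voom, and trend on log2 TPM), other scaling, no filter, a replicate block, and leaving out each library. Shared replicate numbers were not taken as pairs. Libraries of a group differed beyond sampling noise in every pair (chi-square over degrees of freedom of 4.83 to 28.6). The 9 genes, the marker lists and the pathway list were chosen with earlier results of these data known. All 9 genes, every pathway gene that passed, and for likeness the 3 highest of each gene were named. Gene positions are from GENCODE M21 (GRCm38), promoters from RefSeq.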

Additional observations from a re-analysis of the deposited data

How the results depend on the processing

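The edgeR calls of Ptgs2 and Alox5ap in 3AP against control, and of Alox5ap, Ptgs2 and Tbxas1 in PLX3AP against 3AP, held in every alternative run on counts. On TPM, 1 of the 9 genes passed in 3AP against control with log2(TPM + 1), log2(TPM + 0.1) and log2(TPM + 1) without a filter, where Alox5ap had adjusted p-values of 0.160, 0.194 and 0.302 (limma), and 2 passed in PLX3AP against 3AP without a filter. In PLX3AP against control DESeq2 called 1. Leaving out 1 library gave 2 to 3, 3 to 4 and 0 to 0 of the 9 in the 3 comparisons. All tested genes called in 3AP against control were 820, with 419 on unfiltered TPM and 466 to 798 without 1 library. In PLX3AP against 3AP they were 621, with 361 and 401 to 715 likewise. In PLX3AP against control they were 20, with 71 without the low-count filter, 110 in DESeq2, 9 on log2(TPM + 1), 4 on unfiltered TPM, 12 with the Ttr term and 7 to 153 without 1 library. Pathway genes called in 3AP against control were 5, with 8 unfiltered, 2 on log2(TPM + 1) and on log2(TPM + 0.1), 1 on unfiltered TPM and 3 to 6 without 1 library. In PLX3AP against 3AP they were 7, with 3, 2 and 1 on those TPM settings, 4 with the Ttr term and 0 to 6 without 1 library, and in PLX3AP against control 0 to 1 without 1 library. The cause of these shifts was not tested.

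With the replicate number as a block, pathway calls were 3 and 3 in those comparisons with 3AP and all genes called in PLX3AP against control 10. The calls of the 9 genes were the same. Same-numbered libraries deviated together with r of -0.203 to 0.0931, so the numbers are not taken as pairs.

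Reversals touched only fold changes that had not passed. In 3AP against control Ltc4s was -0.077 with the Ttr term and -0.22 to 0.72 without 1 library, and in PLX3AP against 3AP -0.69 to 0.051. In PLX3AP against control Alox5 was 0.28 in limma-voom, 0.051 with the replicate block, 0.16 with the Ttr term and -0.41 to 0.94 without 1 library. There Ptgs1 was 0.16 on log2(TPM + 1), filtered or not, 0.20 on log2(TPM + 0.1) and -0.21 to 0.12 without 1 library. Ptgds was 0.051 on each TPM setting, 0.014 with the Ttr term and -0.14 to 0.13 without 1 library, Ptgs2 -0.083 to 0.82 and Ltc4s -0.65 to 0.37. Low counts limit Alox5, Ptgs2 in PLX3AP and control libraries, and Tbxas1 and Hpgds in PLX3AP. In CPM, not per length, the Ptgs2 share of cyclooxygenase was 15.8% in PLX3AP, 41.4% in 3AP and 12.5% in control libraries.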

Other observations

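Levels were also set against the summed CPM of the 15 microglia markers, a ratio chosen after the values had been seen and given without a test. Per 100 CPM of those markers, Ptgs2 had 1.04, 0.259 and 0.917 CPM in PLX3AP, 1.34, 1.55 and 1.36 CPM in 3AP and 0.358, 0.380 and 0.424 CPM in control libraries. Every 3AP library was above every other, and PLX3AP replicate 2 was the lowest of all. Alox5ap had 1.41, 1.48 and 1.83 CPM in PLX3AP, 2.87, 2.96 and 2.11 CPM in 3AP and 1.48, 1.61 and 1.44 CPM in control libraries. Here the 3AP libraries were again highest, while PLX3AP and control libraries overlapped.

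Tbxas1 and Hpgds gave another order on that scale. Tbxas1 had 0.418, 0.482 and 0.444 CPM per 100 CPM of markers in PLX3AP, 0.765, 0.743 and 0.709 CPM in 3AP and 0.664, 0.995 and 1.02 CPM in control libraries. The PLX3AP libraries lay below all others, and 3AP and control libraries overlapped. Hpgds had 0.470, 0.556 and 0.680 CPM in PLX3AP, 0.639, 0.565 and 1.10 CPM in 3AP and 0.767, 0.878 and 0.648 CPM in control libraries, and all 3 groups overlapped. For Ptgs1, Ptges and Ptgds the 3AP libraries were the lowest. The marker sum was itself highest in 3AP, at 328 to 391 CPM. It was 105 to 161 CPM in PLX3AP and 176 to 196 CPM in control libraries. A gene that changed less than that sum comes out lowest in 3AP here, so the order is not a result about these genes. Ptgs1 had 1.92, 1.98 and 2.11 CPM in 3AP, 2.84 to 4.85 CPM in PLX3AP and 2.19 to 3.19 CPM in control libraries. Ptges had 1.69, 1.81 and 1.75 CPM in 3AP, 3.19 to 4.54 CPM in PLX3AP and 1.84 to 2.37 CPM in control libraries. For Alox5 and Ltc4s all 3 groups overlapped. The sum rests on markers that did not all move alike, P2ry12 among them, and counts neither cells nor RNA per cell.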
